A study of Homo sapiens with 8 samples.

Results

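This report follows 10 genes of pericellular proteolysis, 7 matrix metalloproteinases, urokinase (PLAU), its receptor (PLAUR) and the inhibitor TIMP1, in oral squamous cell carcinoma (OSCC) cells that received a miR-375-3p mimic. The members were taken by name, as all probe sets whose only gene symbol was MMP1, MMP2, MMP7, MMP9, MMP10, MMP13, MMP14, PLAU, PLAUR or TIMP1. This gave 32 probe sets of 10 genes, out of 49386 probe sets and 18239 genes on the array, and no probe set with several symbols named a member. The cells were 4 established human OSCC lines, named SAS-L1, HSC2, HSC3 and Ca9-22. In each line, cells were transfected with 20 nM of the miR-375-3p mimic or with 20 nM of miR-NT, a mimic without a target that served as the control, and total RNA was taken after 48 h. Each line and condition was measured on 1 Affymetrix Human Genome U219 array, so 4 mimic arrays were paired by line with 4 miR-NT arrays. Both conditions shared the transfection reagent, and no other agent is named for them. The arrays were run to find genes and pathways through which miR-375-3p acts on growth and migration. The proteases among the 10 genes are known for clearing matrix around moving cells.

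Matrix metalloproteinases are zinc-dependent endopeptidases that are secreted or anchored to the membrane. They are made as inactive zymogens and become active when their propeptide is cleaved. Collagenases cut fibrillar collagen, gelatinases cut denatured collagen and basement membrane collagen, and stromelysins and matrilysin have broad substrates and can activate other zymogens. Urokinase bound to its receptor converts plasminogen to plasmin, which degrades fibrin and activates several metalloproteinases, and the tissue inhibitors of metalloproteinases (TIMPs) block the active enzymes. In squamous carcinoma these proteases are known for their part at the invasive front, where much of MMP2 and MMP9 can also come from stromal cells. A miRNA lowers mRNAs mainly through sites that pair with its seed, and the mature miR-375-3p (RefSeq, GRCh38.p14, chr2:219001648-219001669, minus strand) is shown to make the transfected agent explicit, with the seed at bases 2 to 8 in capitals. No target site was searched for here.
hsa-miR-375-3p: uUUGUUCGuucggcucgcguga

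Promoter sequence was at hand in RefSeq for 6 of the 10 genes, with 7 start sites, each covering 250 bases before and 50 after the start (GRCh38.p14), and the others were MMP1, MMP2, MMP9 and MMP13. Genes of this family are known to respond to AP-1, a dimer of Fos and Jun proteins. The motif searched for it was TGANTCA, with any base allowed at N, a pattern that reads the same on both strands. The motif was found in 3 of the 7 promoters, those of MMP7, MMP10 and PLAUR, and in 7.71% of 35116 promoters of the same length. The match read TGAGTCA in MMP7 and PLAUR and TGAATCA in MMP10, so the middle base differed. TATAAA, searched on both strands, was found in 2 of the 7, those of MMP7 and MMP10, and in 11.5% of all promoters. The promoters of MMP10 and MMP7, genes that lie in the same cluster on chromosome 11, are shown because they carried both motifs at nearly the same places, whereas MMP10 signal was high in Ca9-22 and MMP7 signal was near the lower end of the scale in every line. In both, the TGANTCA match began 67 bases before the start, and the TATAAA match began 31 bases before it in MMP10 and 30 bases before it in MMP7. The capitals mark both motifs, and a match is not evidence of binding. The MMP10 promoter was read from chr11:102780579-102780878 and the MMP7 promoter from chr11:102530698-102530997, both on the minus strand.
MMP10: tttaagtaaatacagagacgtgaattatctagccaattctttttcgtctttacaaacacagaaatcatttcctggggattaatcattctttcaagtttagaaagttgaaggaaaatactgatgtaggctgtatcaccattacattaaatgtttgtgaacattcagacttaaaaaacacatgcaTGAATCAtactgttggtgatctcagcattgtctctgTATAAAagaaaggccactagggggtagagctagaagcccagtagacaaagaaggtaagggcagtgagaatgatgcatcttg
MMP7: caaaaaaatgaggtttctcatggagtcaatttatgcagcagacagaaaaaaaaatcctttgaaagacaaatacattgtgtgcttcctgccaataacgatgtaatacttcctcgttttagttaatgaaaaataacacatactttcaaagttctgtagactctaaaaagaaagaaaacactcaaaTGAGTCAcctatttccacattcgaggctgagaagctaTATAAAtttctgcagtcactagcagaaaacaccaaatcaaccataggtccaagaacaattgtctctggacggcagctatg
For PLAUR, whose match began 186 bases before the start, 29 bases around it are shown (chr19:43670338-43670366, minus strand).
PLAUR: tcacaactccaTGAGTCAgggccgagcca

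The deposited values are log2 signals computed by the authors with the robust multichip average (RMA), and array medians lay between 4.96 and 5.00. Each gene was read from its brightest probe set over the 8 arrays, and the median gene had a signal of 5.56 by that reading. Of the keratinocyte markers fixed for the check, 5 were measured, and all lay above that median on the mean of the 8 arrays. By line, KRT14 lay below it in SAS-L1 (4.05 mimic, 4.61 miR-NT) and Ca9-22 (4.21 mimic, 4.28 miR-NT). On the same mean, all 7 fibroblast markers, all 5 endothelial markers and 6 of 7 leukocyte markers lay below the median gene. Among the 5 keratinocyte markers the median log2 difference was -0.13, and 1 was called, the keratin KRT5. It had a log2 difference of -1.73 ± 1.04 between the mimic and miR-NT (SD, n = 4 lines; limma adjusted p = 0.0320), and whether this bears on the protease signals was not tested. In whole cultures, fewer cells of a type and less RNA per cell cannot be told apart. Probe sets named _s_at or _x_at can bind related transcripts, which applies to the brightest ones of MMP1, MMP2, PLAUR and TIMP1.

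With the mimic, none of the 10 genes passed the test across the 4 lines. TIMP1 came nearest, with a signal 1.38-fold higher, followed by PLAUR, which was 1.29-fold higher. The proteases showed no shared direction, and a protease that was lower in 1 line was often flat or higher in another. Differences were tested by limma, blocked on the line, and p-values were adjusted by Benjamini-Hochberg across all 18239 genes. At a threshold of 0.05, 12.5% of genes were called. At an unadjusted p under 0.05, 2 of the 10 genes were past it, TIMP1 and PLAUR, against 26.3% of all genes. Over probe sets, 0 of 32 were called, against 11.1% of all probe sets (5.25% lower and 5.81% higher), with 5 at an unadjusted p under 0.05, against 25.1% of all probe sets. The 10 genes had a median log2 difference of -0.05, beside 0.03 for all genes. By line, the median of the 10 was -0.12 (SAS-L1), 0.15 (HSC2), 0.16 (HSC3) and 0.09 (Ca9-22). TIMP1 was the only one of the 10 genes to be higher in all 4 lines, a pattern that 20.9% of all genes showed, and none was lower in all 4, as 11.9% of all genes were. Of the 32 probe sets, 2 were higher in all 4 lines, against 19.3% of all probe sets, and 2 were lower, against 12.8%. Within a line there was 1 array per condition, so the differences by line below have no replicate error and no test.

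**Figure D1:**
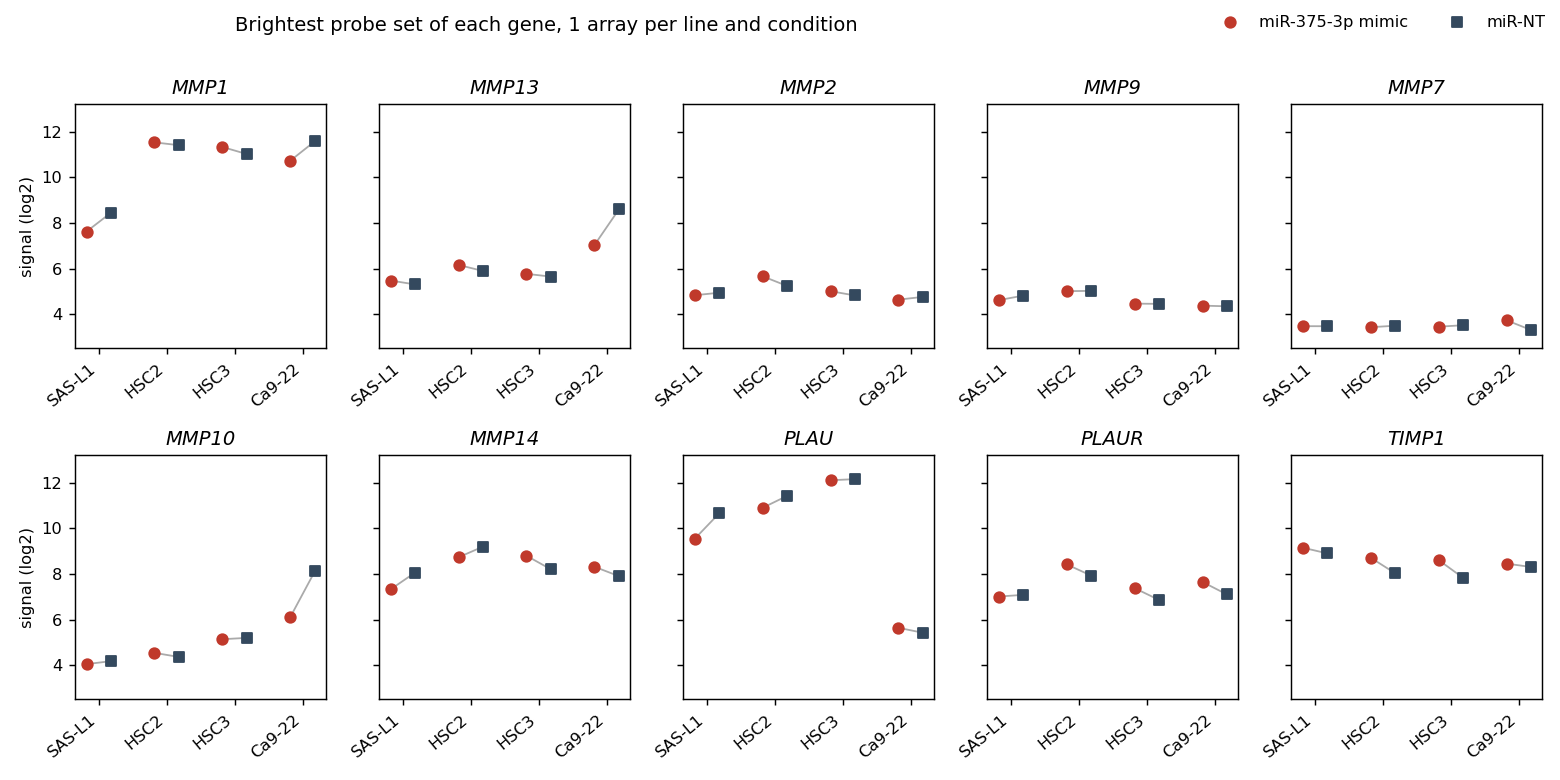
Log2 signal of the brightest probe set of each of the 10 genes, 1 panel per gene, with the miR-375-3p mimic array (red circle) to the left of the miR-NT array (dark square) of each cell line. PLAU was near 5.5 in both Ca9-22 arrays and above 9.5 in the other lines, and MMP13 and MMP10 stood high in Ca9-22 alone.

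Read by line at a 1.5-fold limit, MMP1 was past it in SAS-L1 and Ca9-22, TIMP1 in HSC2 and HSC3, MMP14 in SAS-L1 and HSC3 with opposite signs, and PLAU, MMP13 and MMP10 in 1 line each. In SAS-L1, 3 of the 10 genes were more than 1.5-fold lower (MMP1, MMP14 and PLAU), against 2.43% of all genes, and none was higher (2.48%). In Ca9-22, 3 were more than 1.5-fold lower (MMP1, MMP13 and MMP10), against 5.19% of all genes, and none was higher (4.64%). In HSC2, none was lower (3.59%), and 1 was higher (TIMP1), against 3.33% of all genes. In HSC3, none was lower (5.65%), and 2 were higher (MMP14 and TIMP1), against 5.93%. Past 2-fold, PLAU was lower in SAS-L1 (0.587% of all genes) and MMP13 and MMP10 were lower in Ca9-22 (2.02% of all genes). No member was past 2-fold in HSC2 (1.17% of all genes lower, 0.406% higher) or HSC3 (2.2% lower, 1.37% higher), and none was 2-fold higher in SAS-L1 (0.367%) or Ca9-22 (0.938%).

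**Figure D2:**
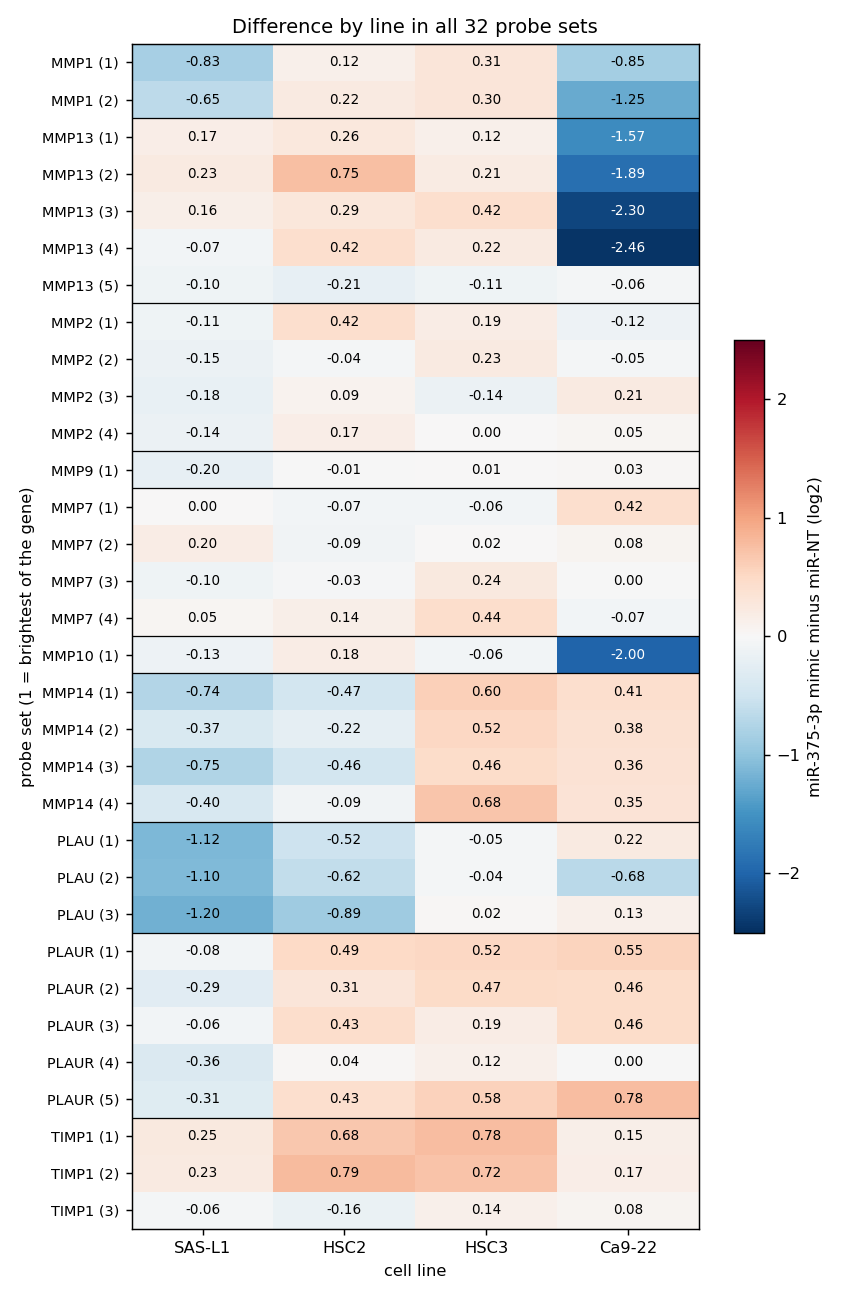
Log2 difference, miR-375-3p mimic minus miR-NT, for each of the 32 probe sets (rows, numbered from the brightest of a gene) in each cell line (columns), with blue for lower and red for higher. The darkest blue cells are those of MMP13 and MMP10 in Ca9-22, and MMP14 changed sign between the first 2 and the last 2 lines in all 4 of its probe sets.

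Among the collagenases, which open the triple helix of fibrillar collagen, MMP1 was bright in HSC2, HSC3 and Ca9-22 and MMP13 was high in Ca9-22 alone. MMP1 signal with the mimic was 7.62 (SAS-L1), 11.54 (HSC2), 11.33 (HSC3) and 10.73 (Ca9-22), against 8.45, 11.41, 11.02 and 11.58 with miR-NT in the same order of lines. It was thus lower with the mimic in SAS-L1 and Ca9-22 and slightly higher in HSC2 and HSC3. The mean log2 difference was -0.31 ± 0.62 (SD, n = 4 lines; limma adjusted p = 0.469), with a 95% confidence interval from -0.85 to 0.22. Single lines moved this mean, to -0.14 without SAS-L1, -0.13 without Ca9-22 and -0.52 without HSC3. The further probe set of MMP1 moved the same way in each line, with log2 differences of -0.65 (SAS-L1), 0.22 (HSC2), 0.30 (HSC3) and -1.25 (Ca9-22).
MMP13, which has the widest substrate range of the collagenases, had signals of 5.47 (SAS-L1), 6.15 (HSC2), 5.77 (HSC3) and 7.03 (Ca9-22) with the mimic, against 5.30, 5.89, 5.64 and 8.60 with miR-NT. Only Ca9-22 was lower with the mimic, and its 2.96-fold lower signal was still the highest of the 4 mimic arrays. Across lines the log2 difference was -0.25 ± 0.88 (limma adjusted p = 0.707, 95% confidence interval from -1.0 to 0.50). MMP13 had 5 probe sets, and in Ca9-22 the 4 brighter ones had log2 differences of -1.57, -1.89, -2.30 and -2.46. The fifth had a mean of 3.12, in the lowest 3.62% of all probe sets, and a difference of -0.06 there. In HSC2 and HSC3 those 4 were all higher with the mimic, and in SAS-L1 3 of the 4 were higher. Without Ca9-22 the mean log2 difference of MMP13 was 0.19 (adjusted p = 0.204).

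MMP10, stromelysin-2, showed the same layout as MMP13. Its only probe set had signals of 4.04 (SAS-L1), 4.54 (HSC2), 5.13 (HSC3) and 6.12 (Ca9-22) with the mimic, against 4.17, 4.36, 5.19 and 8.12 with miR-NT. The Ca9-22 array was 4.01-fold lower with the mimic, the 46th lowest difference of 18239 genes in that line, and the other lines differed by at most 0.18 on the log2 scale. Across lines the log2 difference was -0.50 ± 1.01 (limma adjusted p = 0.465, 95% confidence interval from -1.36 to 0.36), and it was 0.00 without Ca9-22. Over the 8 arrays MMP10 and MMP13 correlated at a Pearson r of 0.947, and both Ca9-22 arrays were above all others of their condition for both genes.

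MMP7, MMP10, MMP1 and MMP13 belong to a run of 9 metalloproteinase genes that are neighbors on chromosome 11, in the RefSeq order MMP7, MMP20, MMP27, MMP8, MMP10, MMP1, MMP3, MMP12 and MMP13. In Ca9-22, 4 of the 9 were lower by more than 1.5-fold with the mimic, MMP10, MMP1, MMP12 and MMP13, against 5.19% of all genes. These were the 4 with a miR-NT signal above 6 in that line. The others read 3.28 to 4.00 with miR-NT there, where hardly any fall can show. The miR-NT value also enters the difference, so this match is a description and was not tested. MMP12, macrophage elastase, had 4.98 with the mimic and 6.05 with miR-NT in Ca9-22, and all its other arrays lay between 2.95 and 3.89. MMP3, stromelysin-1, was at 3.96 with the mimic and 4.00 with miR-NT in Ca9-22, but in HSC3 it was 5.40-fold higher, at 10.23 with the mimic and 7.80 with miR-NT. That was the 6th highest difference of 18239 genes in HSC3. MMP3 was also higher in SAS-L1 (log2 difference 0.51) and lower in HSC2 (-0.57). The stromelysins MMP10 and MMP3 thus had their largest differences in different lines, Ca9-22 and HSC3, each from 1 array per condition. Across lines neither MMP3 (0.58 ± 1.31, limma adjusted p = 0.524) nor MMP12 (-0.18 ± 0.62, adjusted p = 0.703) passed the test, and both were singled out after their values were seen. MMP7, MMP20, MMP27 and MMP8 had miR-NT signals between 3.16 and 4.16 in every line.

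**Figure D3:**
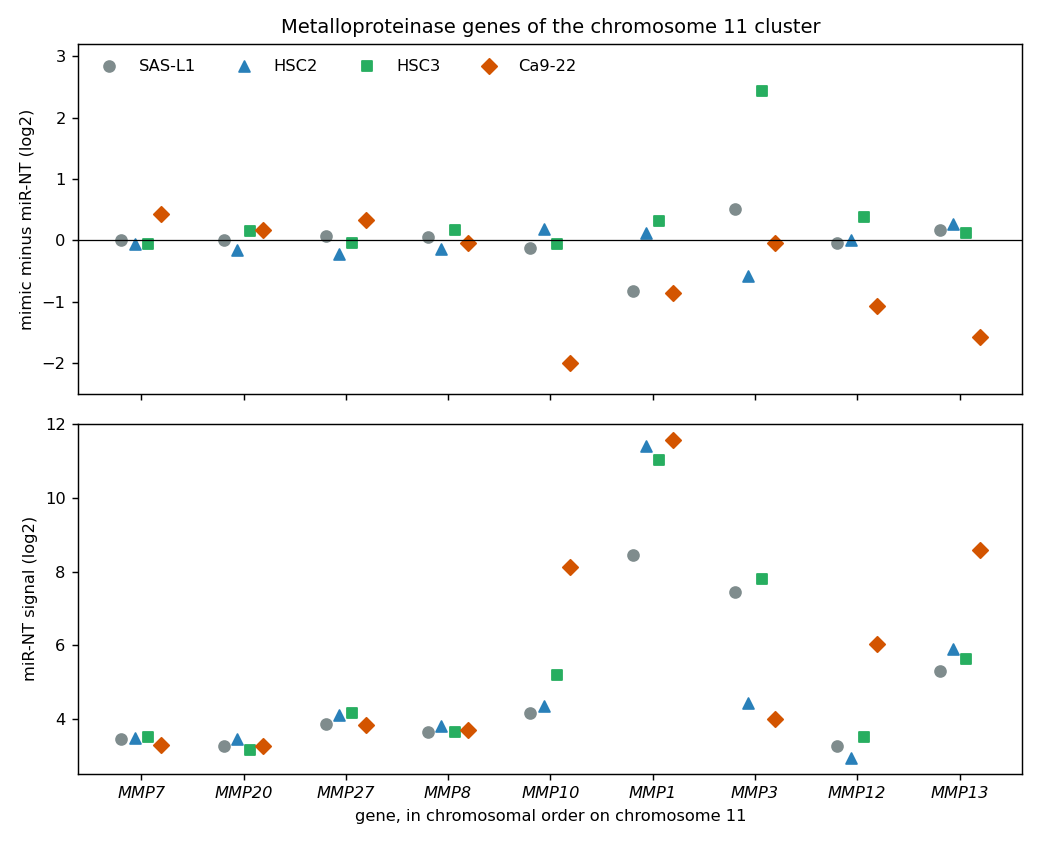
The 9 metalloproteinase genes of chromosome 11 in chromosomal order, with the log2 difference, mimic minus miR-NT (top), and the miR-NT log2 signal (bottom) of each cell line by marker. In Ca9-22 (orange diamonds) the 4 genes with a miR-NT signal above 6 were those more than 1.5-fold lower with the mimic. The others were at 4.00 or less with miR-NT there, where hardly any fall can show. In HSC3 (green squares) MMP3 was 2.43 higher.

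The gelatinases and matrilysin lay below the median gene on average, and none passed the test. MMP2, the gelatinase that MMP14 activates, had signals of 4.83 (SAS-L1), 5.66 (HSC2), 5.00 (HSC3) and 4.63 (Ca9-22) with the mimic, against 4.94, 5.24, 4.82 and 4.75 with miR-NT. HSC2 was highest in both conditions, and the mean log2 difference was 0.10 ± 0.26 (limma adjusted p = 0.673, 95% confidence interval from -0.16 to 0.35). The other 3 probe sets of MMP2 lay between 3.66 and 3.87 on average, below 3.89, the lower quartile of all probe sets. MMP9, the other gelatinase, had 4.61, 5.01, 4.46 and 4.37 with the mimic and 4.81, 5.02, 4.45 and 4.34 with miR-NT. Its log2 difference was -0.04 ± 0.10 (adjusted p = 0.774) with an interval from -0.20 to 0.12, so any mean change of its signal was small on this scale. MMP7, matrilysin, is known from glandular epithelium, and its 4 probe sets averaged 2.96 to 3.48, below that lower quartile. With the mimic its brightest probe set read 3.47, 3.42, 3.45 and 3.73, against 3.47, 3.49, 3.51 and 3.30 with miR-NT (log2 difference 0.07 ± 0.24, adjusted p = 0.733). A signal so near the lower end of the scale can show hardly any fall.

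MMP14, the membrane-type metalloproteinase that cleaves collagen at the cell surface and activates MMP2, was bright in every line and moved in opposite directions between lines. Its signal with the mimic was 7.32 (SAS-L1), 8.73 (HSC2), 8.80 (HSC3) and 8.31 (Ca9-22), against 8.06, 9.20, 8.20 and 7.90 with miR-NT. It was 1.67-fold lower in SAS-L1 and 1.51-fold higher in HSC3. Past 1.5-fold in both directions in different lines were 1 of the 10 genes, MMP14, and 0.329% of all genes. That held for the brightest probe set of MMP14 only. The others had log2 differences of -0.37, -0.75 and -0.40 in SAS-L1 and 0.52, 0.46 and 0.68 in HSC3, none past 1.5-fold in both. All 4 probe sets were lower with the mimic in SAS-L1 and HSC2 and higher in HSC3 and Ca9-22, although probe sets of a gene share the same RNA. The mean log2 difference was -0.05 ± 0.65 (limma adjusted p = 0.936, 95% confidence interval from -0.61 to 0.52). Whether the lines truly differ could not be tested with 1 array per line and condition.

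Urokinase was the most line-dependent of the 10 genes, and with the mimic its signal was lower in the lines SAS-L1 and HSC2. PLAU signal was 9.54 (SAS-L1), 10.90 (HSC2), 12.11 (HSC3) and 5.64 (Ca9-22) with the mimic, against 10.66, 11.42, 12.16 and 5.42 with miR-NT. The mimic array was 2.17-fold lower in SAS-L1, the 81st lowest difference of 18239 genes there, and HSC3 hardly differed. The mean log2 difference was -0.37 ± 0.59 (SD, n = 4 lines; limma adjusted p = 0.354, 95% confidence interval from -0.88 to 0.14). It rested largely on SAS-L1, without which it was -0.12 (adjusted p = 0.729). The other probe sets of PLAU had log2 differences of -1.10 and -1.20 in SAS-L1, -0.62 and -0.89 in HSC2, -0.04 and 0.02 in HSC3, and -0.68 and 0.13 in Ca9-22. They thus gave the same picture in the 3 lines with a bright PLAU signal and disagreed in Ca9-22, where the signal was low. The probe set with the -0.68 averaged -0.61 ± 0.43 (adjusted p = 0.0627 by limma, across probe sets). Its adjusted p was 0.0492 when the dimmest probe sets were left out, 0.0482 with another variance model and 0.0297 without HSC3, but 0.0670 after quantile normalization and 0.138 to 0.188 without SAS-L1, HSC2 or Ca9-22.
PLAUR, the receptor that holds urokinase at the cell surface, was higher with the mimic in 3 lines. Its signal was 7.01 (SAS-L1), 8.42 (HSC2), 7.38 (HSC3) and 7.65 (Ca9-22) with the mimic, against 7.08, 7.93, 6.86 and 7.10 with miR-NT. The log2 difference was -0.08 in SAS-L1 and between 0.49 and 0.55 in the other lines. On all 4 lines it was 0.37 ± 0.30 (limma adjusted p = 0.0975, 95% confidence interval from 0.09 to 0.66). Without SAS-L1 it was 0.52 (adjusted p = 0.0189), and 3 of the 5 probe sets of PLAUR were then called higher. Without HSC2, HSC3 or Ca9-22 the adjusted p lay between 0.261 and 0.289, and the mean of the 5 probe sets gave 0.24 (adjusted p = 0.283). All 5 probe sets were lower in SAS-L1, by 0.06 to 0.36 on the log2 scale. One of them, with a mean of 6.30, stayed flat in the other lines, at 0.04 in HSC2, 0.12 in HSC3 and 0.00 in Ca9-22.

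TIMP1, the secreted inhibitor of most of these metalloproteinases, was the gene nearest to the threshold. Its signal was 9.15 (SAS-L1), 8.71 (HSC2), 8.61 (HSC3) and 8.45 (Ca9-22) with the mimic, against 8.90, 8.03, 7.83 and 8.30 with miR-NT. The mimic array was higher in each line, by 1.72-fold in HSC3 and 1.60-fold in HSC2 and by less in SAS-L1 and Ca9-22, while the ranges of the 2 conditions overlapped. The mean log2 difference was 0.46 ± 0.31 (SD, n = 4 lines; limma adjusted p = 0.0586, 95% confidence interval from 0.17 to 0.76). The adjusted p was 0.0484 after quantile normalization and 0.0483 when dim genes were left out, but 0.0719 after array medians were subtracted, 0.0741 with the mean of its probe sets and 0.0606 to 0.204 with 1 line left out. A further probe set gave 0.48 ± 0.32 (adjusted p = 0.0625 by limma, across probe sets). The third, with a mean of 6.06, showed no such difference, at 0.00 ± 0.14.

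Between lines, most of the 10 genes differed, with PLAU, MMP10, MMP13 and MMP1 far apart. In the same fit, the F test over cell lines called 8 of the 10 genes, all but MMP7 and MMP14, against 42.7% of all genes, and 21 of 32 probe sets, against 40.7% of all probe sets. The 2 arrays of a line are of different conditions, so this test reads the spread from how unevenly the lines responded. The miR-NT range over the lines exceeded 2 log2 units for 4 of the 10 genes, PLAU, MMP10, MMP13 and MMP1, against 4.68% of all genes. For PLAU it was 6.74, or 107-fold between HSC3 and Ca9-22, the 9th widest of 18239 genes (F test, limma adjusted p = 1.56e-04). No detection call was used, so if the Ca9-22 signal is background, that fold is a lower bound. It was 3.95 for MMP10, 3.29 for MMP13 and 3.14 for MMP1, and the mimic arrays had ranges of 6.47 for PLAU, 2.08 for MMP10, 1.56 for MMP13 and 3.91 for MMP1.
In the order of levels over both arrays of a line, PLAU ran from HSC3 (12.13) over HSC2 (11.16) and SAS-L1 (10.10) to Ca9-22 (5.53). HSC3 and HSC2 did not differ beyond their spread (limma adjusted p = 0.0660), HSC2 exceeded SAS-L1 by 1.07 (adjusted p = 0.0439), and SAS-L1 exceeded Ca9-22 by 4.57 (adjusted p = 3.01e-04). MMP1 was at 11.47 in HSC2, 11.18 in HSC3 and 11.16 in Ca9-22, which did not differ from their neighbors in that order, and at 8.03 in SAS-L1, which was 3.12 below Ca9-22 (adjusted p = 0.00125). The F test for MMP1 rested on SAS-L1, since its adjusted p without that line was 0.647.
MMP13 and MMP10 had Ca9-22 at the top, at 7.81 and 7.12. Ca9-22 exceeded the next line by 1.79 for MMP13 (HSC2, adjusted p = 0.0309) and by 1.95 for MMP10 (HSC3, adjusted p = 0.0317), and the lower 3 lines did not differ from their neighbors beyond the spread. PLAUR was highest in HSC2, at 8.17, which exceeded Ca9-22 by 0.80 (adjusted p = 0.0172), and the next steps from Ca9-22 to HSC3 and SAS-L1 did not pass the test. TIMP1 was highest in SAS-L1, at 9.03, which exceeded Ca9-22 by 0.65 (adjusted p = 0.0372), with Ca9-22, HSC2 and HSC3 between 8.22 and 8.38. MMP2 was highest in HSC2, 0.54 above HSC3 (adjusted p = 0.0492), and MMP9 was highest in HSC2 too, 0.30 above SAS-L1 (adjusted p = 0.0593). The F test of TIMP1 lost its call without SAS-L1 (adjusted p = 0.724), and those of MMP2 (0.353), MMP9 (0.0967) and PLAUR (0.396) lost theirs without HSC2. For MMP14 (F test, adjusted p = 0.0767) and MMP7 (0.984) no neighboring lines differed. The ends of the MMP14 order did, with HSC2 above SAS-L1 by 1.27 (adjusted p = 0.0336), and MMP14 passed the F test without HSC3 (0.0303).

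Of the 73 related genes listed by role, 67 were measured, and 4 fell and 1 rose with the mimic, leaving 62 that missed the threshold, where 5.19% of all genes fell and 7.35% rose. The lists were chosen with earlier results of these data known, so their counts beside those of all genes are a description. The median log2 difference of the 67 was 0.05, beside 0.03 for all genes. None of the 15 other matrix metalloproteinases and none of the 4 other inhibitors was called by limma, with 2 of each group at an unadjusted p under 0.05, where 26.3% of all genes were. Nearest among the metalloproteinases was the membrane-type MMP15 (0.32 ± 0.19, limma adjusted p = 0.0655), with MMP16 at 0.18 ± 0.13 and MMP24 at 0.15 ± 0.13. Among the inhibitors, TIMP2 had 0.39 ± 0.30 (adjusted p = 0.0855, and 0.0408 without Ca9-22), TIMP4 0.18 ± 0.14 and the membrane-anchored RECK -0.12 ± 0.21.
Of 10 other genes of plasminogen activation, 0 were called (limma), with 3 at an unadjusted p under 0.05, near the 26.3% of all genes. The urokinase inhibitor SERPINE2 had a log2 difference of 0.45 ± 0.28 (adjusted p = 0.0504) and was called higher in 4 of 10 alternatives (0.0259 to 0.0485) and not in the other 6. The plasminogen-binding proteins ENO1 (-0.21 ± 0.02, adjusted p = 0.0560) and ANXA2 (-0.20 ± 0.06, adjusted p = 0.0722) were lower in each line by a small amount. Of 10 alternatives, ENO1 was called lower in 3 and ANXA2 in 1. PLAT, the tissue-type activator, was singled out after its values were seen, and it was 2.33-fold higher in HSC3 and between -0.10 and 0.10 on the log2 scale in the other lines. Of 10 activators, inducers and anchors, FURIN, the convertase that activates MMP14, rose by 1.28-fold (0.36 ± 0.17, adjusted p = 0.0365). That call was lost without HSC2, HSC3 or Ca9-22 (adjusted p between 0.0992 and 0.111) and with another variance model (0.0560). The sheddase ADAM17 had 0.35 ± 0.23, the surface protease ST14 0.54 ± 0.52 and CD44 -0.17 ± 0.22, none past the test.

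Among 15 transcription factors that act on protease promoters, 3 fell, none rose and 12 did not pass. Of all genes, 5.19% fell and 7.35% rose, but this list too was chosen with earlier results known, so the shares are not a test. ETS2, a member of the ETS family, was lower in each line, by 1.29-fold on average (-0.37 ± 0.08; SD, n = 4 lines; limma adjusted p = 0.0160). NFKB1, an NF-kB subunit, was 1.32-fold lower (-0.40 ± 0.15, adjusted p = 0.0240). RUNX2, which drives MMP13 in bone, was 1.67-fold lower (-0.74 ± 0.49, adjusted p = 0.0470), with log2 differences of -0.80 (SAS-L1), -0.28 (HSC2), -0.48 (HSC3) and -1.40 (Ca9-22). RUNX2 and NFKB1 lost their call with any 1 line left out (adjusted p between 0.0579 and 0.120), RUNX2 also when its probe sets were averaged (-0.36, adjusted p = 0.0808), and ETS2 lost its call without HSC2 (0.0676) or HSC3 (0.0536). FOSL1, an AP-1 subunit of squamous cells, had -0.63 ± 0.51 (adjusted p = 0.0788), ETS1 -0.36 ± 0.33 and ETV5 0.46 ± 0.42.
Of 13 genes of the extracellular matrix, THBS1, a matricellular protein, fell by 3.05-fold (-1.61 ± 0.69, limma adjusted p = 0.0135), which made it the largest mean change among the 67 related genes. Its signal with the mimic was 10.40 (SAS-L1), 9.19 (HSC2), 8.87 (HSC3) and 7.78 (Ca9-22), against 11.37, 10.28, 11.28 and 9.73 with miR-NT. It was lower in each line, and its adjusted p without Ca9-22 was 0.0518. The basement membrane collagens COL4A1 (0.32 ± 0.21) and COL4A2 (0.32 ± 0.32) and the matrix glycoprotein TNC (0.41 ± 0.36) did not pass the test, though COL4A1 (0.0288) and TNC (0.0368) did without SAS-L1.

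**Figure D4:**
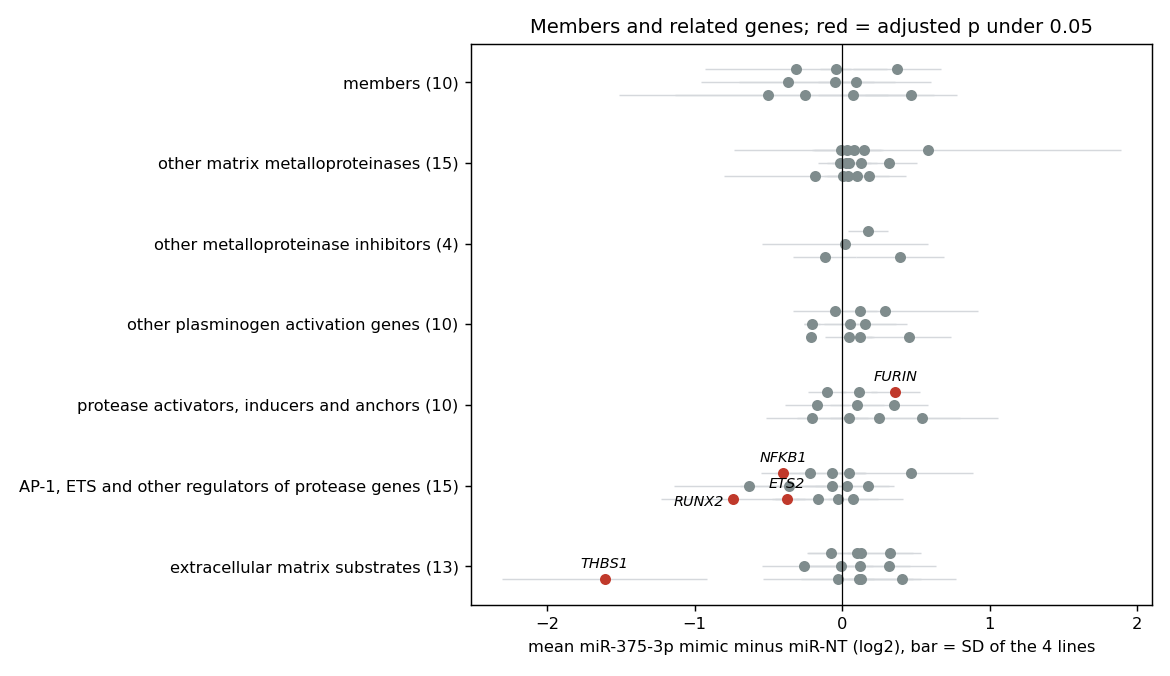
Mean log2 difference, mimic minus miR-NT, of the 10 members (top row) and of 67 related genes by list, each point a gene and each bar the SD of the 4 lines, with the number measured in parentheses. Red points passed the test, which holds for THBS1, RUNX2, NFKB1 and ETS2 below 0 and FURIN above 0, and for none of the members.

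Genes with the most similar pattern to a member over the 8 arrays were sought among 9119 genes at or above the median signal, for the 6 members that were themselves above it. Nearest to PLAU was TMSB10, an actin-sequestering thymosin (Pearson r = 0.996), followed by CHFR (0.994). MMP1 was nearest to JARID2 (0.982) and UBE2H (0.980), MMP13 to ADA (0.985) and MRPS7 (0.971), and MMP14 to INAVA (0.952) and CYP4F3 (0.950). For PLAUR these were CYTH1 (0.985) and TNKS (0.977), and for TIMP1 ZFAND2B (0.974) and ATP5MF (0.967). The 8 arrays come from 4 lines, so these are mainly likenesses between lines, picked as the highest of many, and they carry no test.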

How the data were processed

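Affymetrix Human Genome U219 arrays, 8 in all, measured total RNA of 4 OSCC lines, 1 for the miR-375-3p mimic and 1 for miR-NT in each line. The authors corrected the background, normalized the arrays and summarized the probes by RMA, named in the submitters' processing notes, and deposited log2 signals per probe set. With no scanner files in use, other background corrections were not tried. Gene symbols came from the platform annotation and were updated through gene identifiers of RefSeq (GRCh38.p14), which matched 45172 of 45253 probe sets with 1 symbol. Control probe sets (93) were left out of the tests. Among all 49386 probe sets, 1327 had several symbols and 2800 had none.

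A gene was represented by its brightest probe set, judged by the mean of all 8 arrays. Models were fitted by limma 3.58.1 under R 4.3.3, blocked on the line, and p-values were adjusted by Benjamini-Hochberg across 18239 genes, or across 49293 probe sets, at 0.05. Line differences used the F test of the line terms and contrasts between lines. The lines pair the arrays by design, and the 2 arrays of a line, each taken relative to its condition's mean, correlated at 0.836 to 0.886. Nothing in the labels says that lines were cultured more than once, so p-values measure the spread between these arrays, whose number limits the precision.

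The members and lists were chosen with earlier results of these data known. Named were all members, related genes past the threshold and up to 3 further genes of each list with the smallest p, and the 2 genes most alike to each brighter member. The fit was tested on simulated data. Alternatives were a fit without the block, 2 other normalizations, a filter on dim signals, another variance model, an average of all probe sets per gene, each line left out, the methods' t-test and a 1.5-fold limit. Of the 73 related genes listed, 67 were analysed, and of the 8 keratinocyte markers, 5. The others are not reported here. Other experiments of the study were not analysed here.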

Additional observations from a re-analysis of the deposited data

Results flagged for a closer look

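With 4 lines per group, 30 groups of values were examined for a line far from the others, and chance flags about 1 in 20 such groups. In 5 cases 1 line stood apart. The log2 difference of MMP13 in Ca9-22 was -1.57, whereas the other lines lay between 0.12 and 0.26. That of MMP10 in Ca9-22 was -2.002, whereas the others lay between -0.13 and 0.18. Both genes had their highest miR-NT signal in Ca9-22, and whether that plays a part was not tested. The log2 difference of PLAUR in SAS-L1 was -0.0754, below the 0.49 to 0.55 of the other lines. For MMP7 in Ca9-22, the difference was 0.42 and the signal with the mimic was 3.73, both highest of the 4 lines, although all arrays were dim for it, and a further 3 probe sets of MMP7 had differences of 0.08 or less there.

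MMP14 moved in opposite directions in 2 lines, with a log2 difference of -0.74 in SAS-L1 and 0.60 in HSC3. The difference between the lines was not tested, since each had 1 array per condition.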

How the results depend on the processing

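Uncalled member means changed sign over the alternatives for MMP13 (-0.42 to 0.19), MMP14 (-0.26 to 0.18), MMP2 (-0.01 to 0.17), MMP7 (-0.04 to 0.12) and MMP9 (-0.07 to 0.01). Counts of member genes called higher, 0 on all lines, were 1 after quantile normalization and 1 when dim genes were left out, in both cases TIMP1, and MMP7 has no value in the second. They were 0 to 1 with 1 line left out, the call being PLAUR without SAS-L1. Counts of member probe sets called lower, also 0, were 1 when dim probe sets were left out, 1 with the intensity trend and 0 to 1 with 1 line left out, each time the same PLAU probe set. Counts of member probe sets called higher ran from 0 to 3 with 1 line left out. The methods' t-test was run unpaired, so differences between lines added to its error. It called 0 of the 10 genes and 0 of the 32 probe sets, also without adjustment, which does not show that an effect was absent. Over all genes this t-test gave 1146 at an unadjusted p under 0.05 and 0 after Benjamini-Hochberg. Without the block for the pairing by line, limma called 6 genes lower and 0 higher among all genes, and 0 lower and 0 higher among the related genes, against 4 and 1. Related genes called higher were 2 after quantile normalization and 2 without dim genes. With 1 line left out, related genes called lower ran from 1 to 2 and those called higher from 0 to 4. Member genes that differed between lines numbered 8, and 5 to 9 with 1 line left out. Such fits hold 6 arrays in place of 8, which by itself can cost calls. Over all genes, 351 were lower and 318 higher without HSC2, against 946 and 1341.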
